A study of Mus musculus with 48 samples.

Results

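Mesp1 and Mesp2 were followed across 48 single mouse cells, each as 1 row of a deposited expression table that holds 23284 gene symbols. Both genes were chosen by name, and both rows were found. The cells came from embryonic stem cells of strain 129P2/OlaHsd that carry an inducible Mesp1, grown as embryoid bodies for 4 days with doxycycline at 500 ng/ml given between days 2.25 and 3.25. Cells that excluded propidium iodide were taken as living by sorting, and a Fluidigm C1 device then isolated them one by one. All 48 cells belong to 1 group and no separate cultures are named, so they stood as 1 sample. There were no uninduced cells to compare with, and no p-value was made from cells. Mesp1 has a single row, in which RNA made from the inducible transgene and from the native locus cannot be told apart. What promoter and vector the transgene has is not given in the sources used here.

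Mesp1 and Mesp2 are basic helix-loop-helix transcription factors. They lie side by side in the genome, point away from each other and bind E-box DNA as partners of the widely expressed E proteins. Mesp1 is switched on in mesoderm leaving the primitive streak and marks the founders of the heart and much of the cardiovascular system. Mesp2 is best known in the anterior presomitic mesoderm, where T-box and NOTCH inputs turn it on and where it sets the segment border and the front of each somite. Both are expressed together in the early streak mesoderm of the embryo.

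Mesp1 occupies positions 79792241 to 79793788 of chromosome 7 on the minus strand, and Mesp2 positions 79810727 to 79813439 on the plus strand (GRCm38, GENCODE M21). Their starts are 16.9 kb apart, and each gene has 2 exons. The transcripts are most alike in the part of exon 1 that encodes the basic helix-loop-helix domain. This stretch is shown because it decides how far reads of the paralogues can be told apart. It runs over 205 coding bases, from chr7:79793100-79793304 (minus strand) in Mesp1 and from chr7:79811161-79811365 (plus strand) in Mesp2, and capitals mark the 20 bases that differ (90.2% identity).
Mesp1: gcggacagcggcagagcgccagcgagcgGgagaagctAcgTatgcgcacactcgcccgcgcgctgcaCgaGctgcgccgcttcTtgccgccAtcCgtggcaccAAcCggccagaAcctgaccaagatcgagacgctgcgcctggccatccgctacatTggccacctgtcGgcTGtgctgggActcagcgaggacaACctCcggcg
Mesp2: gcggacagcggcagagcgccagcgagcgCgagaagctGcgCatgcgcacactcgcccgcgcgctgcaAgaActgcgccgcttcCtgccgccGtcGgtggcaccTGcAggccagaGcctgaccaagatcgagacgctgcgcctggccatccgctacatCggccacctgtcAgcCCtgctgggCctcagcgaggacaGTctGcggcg

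The longest run shared without a difference was 42 bases. Of the 1251 words of 25 bases in the Mesp1 transcript, 24 (1.92%) also occurred in Mesp2, while 7 of 1240 words of 36 bases and 0 of 1226 words of 50 bases did. Reads from most of either transcript are therefore distinct at these lengths. The read length is not given in the sources used here, and how reads in the shared stretch were assigned is not known.

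The promoter windows of both genes (250 bases before to 50 after the start, RefSeq, GRCm38.p6) were searched on both strands for 3 motifs: the T-box core CACACCT, the E-box CANNTG and the RBPJ core TGGGAA. Each window held 1 T-box core, which 5.84% of 32851 promoter windows held, and 2 E-boxes, which 72.3% held. Neither held the RBPJ core, which 25.6% held. Counting the RefSeq start as base 1, the T-box core begins at base 7 in Mesp1 and at base 29 in Mesp2. The RefSeq start of Mesp1 lies 198 bases inside the GENCODE gene given above, whereas that of Mesp2 is the GENCODE start. Both sites are shown in 30-base windows with the core in capitals, because T-box genes are among the inputs examined here. The first window is chr7:79793566-79793595 on the minus strand, the second chr7:79810744-79810773 on the plus strand. A match describes letters only, and binding was not measured.
Mesp1 site: ggggcccgcttCACACCTagggctcaggat
Mesp2 site: gggtcagaatcCACACCTctgcaaatgggc

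Levels were treated as FPKM, the fragments of a gene scaled to its length and to the cell's mapped total. The deposited table names no unit. Detection means a level of at least 1 FPKM. Cells had between 4788 and 7010 detected genes (median 6212), and this number fell as the number in the cell's label rose (Spearman's rho = -0.82), which is called the capture number below. Of 12 housekeeping genes, 8 were detected in every cell. Hprt was listed at 0 in 13 cells, so a value of 0 is reported only as listed.

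Mesp1 was detected in 30 of 48 cells (62.5%, exact Clopper-Pearson 95% interval 47.4% to 76.05%, which covers counting error only). Its median level was 7.66 FPKM and its highest 254 FPKM. It was listed at 0 in 15 cells and between 0 and 1 FPKM in 3. Among the 30 detected cells the lowest value was 3.58 FPKM, the median 23.9 FPKM and the quartiles 10.6 and 59.3 FPKM. A gap thus separated the detected cells from the 3 cells just under the threshold, C76 at 0.956 FPKM, C89 at 0.757 FPKM and C67 at 0.656 FPKM. Mesp1 reached 50 FPKM or more in 10 cells, and cell C69 alone held 21.02% of the summed level. The cells after C69 were C07 at 94.5 FPKM, C77 at 79.6 FPKM and C70 at 74.5 FPKM.

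Mesp2 was detected in 13 cells (27.1%, interval 15.3% to 41.8%) and listed at 0 in 33. In the 13 cells it was 69.1 FPKM in C75, 41.7 in C32, 34.8 in C51, 33.7 in C69, 20.2 in C18, 18.4 in C42, 15.6 in C36, 15.4 in C65, 11.6 in C22, 10.2 in C46, 6.47 in C07, 3.30 in C15 and 1.94 FPKM in C09. The 5 highest cells held 70.5% of the summed Mesp2 level. Short RNA rows, such as those of small nucleolar RNAs, took 83.7% of the total FPKM in C75 and 76.2% in C42, and 11 of the 48 cells were over 50%. That share had rho = 0.13 with Mesp1 and 0.0013 with Mesp2. The median over detected cells was 15.6 FPKM for Mesp2 and 23.9 FPKM for Mesp1. Mesp1 was detected in more cells than 65.8% of the 13927 genes detected in any cell, with short RNA rows left out, and Mesp2 in more cells than 41.9% of them.

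**Figure D1:**
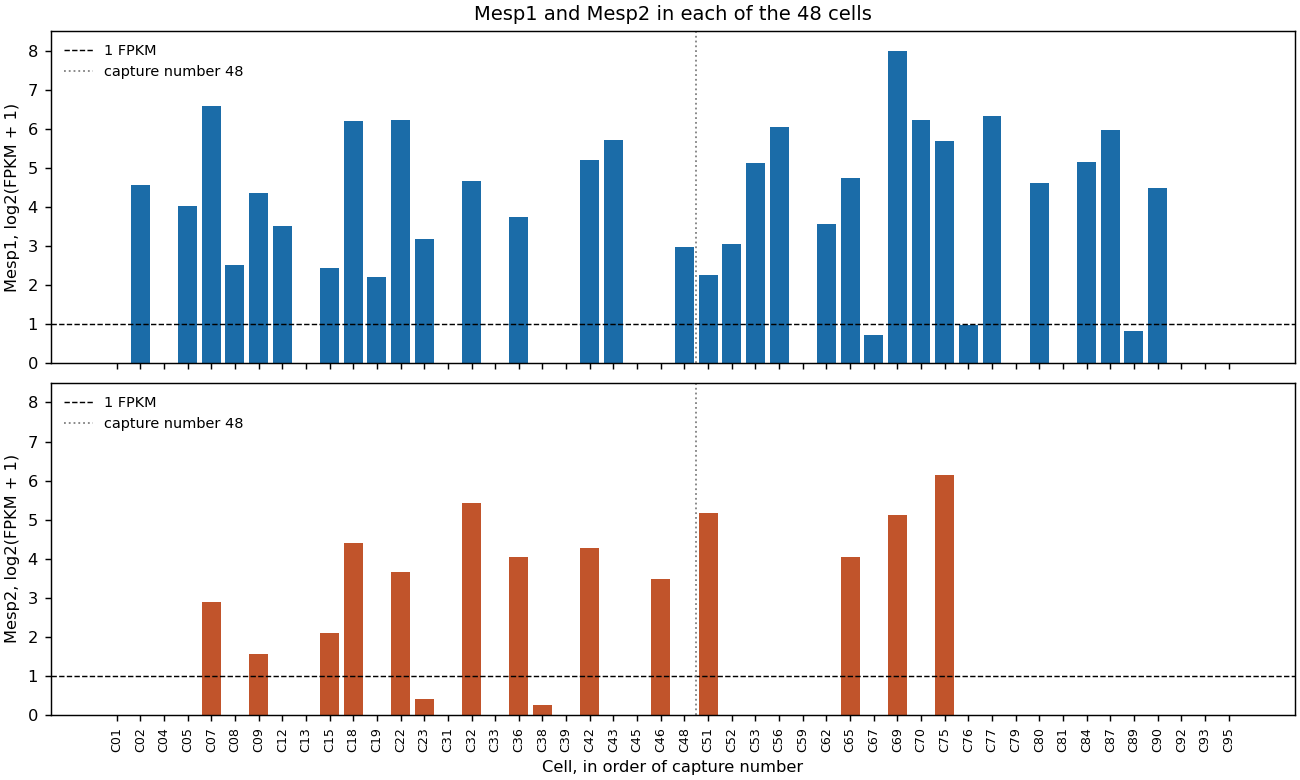
Mesp1 (upper bars) and Mesp2 (lower bars) in each cell as log2(FPKM + 1), in order of capture number, with the 1 FPKM line dashed and capture number 48 dotted. Mesp1 passes the line in 30 cells and Mesp2 in 13, and cells without Mesp1 occur along the whole order.

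Mesp2 was mostly found in cells that also held Mesp1. Both were detected in 12 cells, Mesp1 alone in 18, Mesp2 alone in 1 and neither in 17. Mesp2 was thus detected in 12 of the 30 cells with Mesp1 (40%, interval 22.7% to 59.4%) and in 1 of the 18 cells without it (5.56%, interval 0.141% to 27.3%). Read the other way, Mesp1 was detected in 12 of 13 cells with Mesp2 (92.3%) and in 18 of 35 without (51.4%). The single cell with Mesp2 and no Mesp1 was C46, which had 10.2 FPKM of Mesp2 and listed Mesp1 at 0. Both genes were listed at 0 in 13 cells.

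The share of cells with Mesp2 was 5 of 10 at 50 FPKM or more of Mesp1, 5 of 13 between 10 and 50 FPKM, 2 of 7 between 1 and 10 FPKM and 1 of 18 below. The intervals of the 3 upper ranges overlap widely (18.7% to 81.3%, 13.9% to 68.4% and 3.67% to 70.96%), so no order among them could be read. Mesp2 was listed at 0 in 5 of the 10 cells with the most Mesp1, namely C77, C70, C56, C87 and C43. In the 12 cells with both, Mesp1 was the higher of the pair in 8 and Mesp2 in 4, with a Mesp1 to Mesp2 ratio of FPKM between 0.108 in C51 and 14.6 in C07 (median 1.81).

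Over all 48 cells the levels of Mesp1 and Mesp2 had rho = 0.37 (Pearson's r = 0.42 on log2(FPKM + 1)). Without the 2 cells farthest from the median of Mesp1, rho was 0.29 and r was 0.34. The labels name no separate device runs or preparations, and this value is a description. It was 0.53 over the 25 cells up to capture number 48 and 0.31 over the 23 cells above, where it was 0.16 without the 2 farthest cells. Among the 30 cells with Mesp1 it was 0.17, and among the 12 cells with both it was 0.084.

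**Figure D2:**
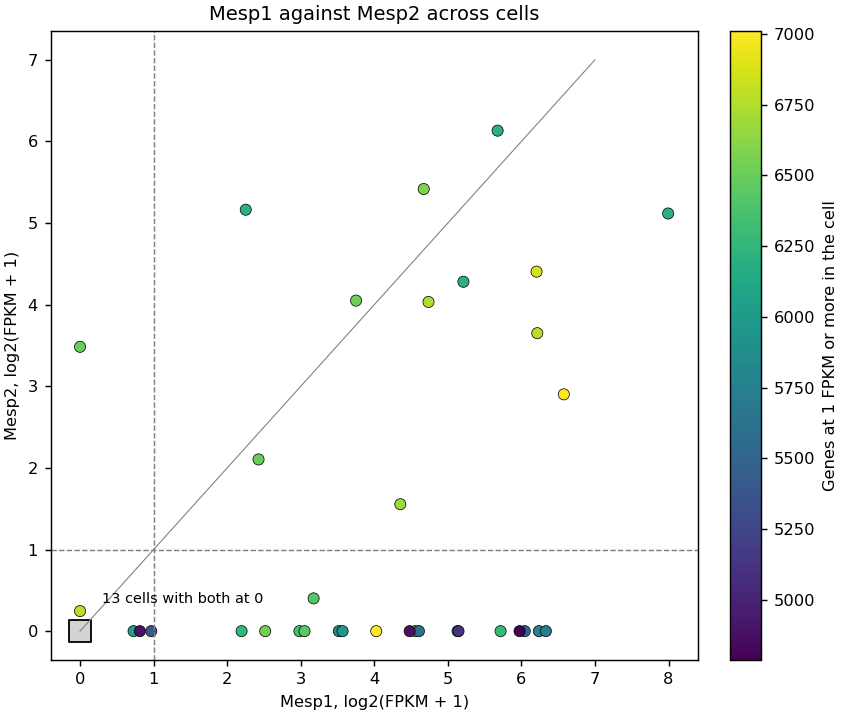
Mesp1 against Mesp2 as log2(FPKM + 1), 1 point per cell, coloured by the number of detected genes, with 1 FPKM dashed and a line of equal levels. A square stands for the 13 cells with both genes at 0, and all but 1 of the 13 cells with Mesp2 lie to the right of the Mesp1 threshold.

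The number of detected genes moved with Mesp2. It had rho = 0.47 with Mesp2 and 0.041 with Mesp1. All 13 cells with Mesp2 had at least 6204 detected genes, whereas the 18 cells with Mesp1 alone reached down to 4788 and the 17 cells with neither to 4887. Mesp2 was detected in 9 of the 24 cells above the median number of genes and in 4 of the other 24, and Mesp1 in 16 and 14. Those 4 cells, C42, C51, C69 and C75, had 6204 or 6205 detected genes and so lay just under the median of 6212. No cell with fewer held Mesp2. Within the 24 upper cells Mesp2 was detected in 8 of 16 cells with Mesp1 and in 1 of 8 without, and in the other 24 in 4 of 14 and 0 of 10. The part of gene number in the lower detection of Mesp2 was not tested. After regression of the ranks on that number the rho of Mesp1 with Mesp2 was 0.40.

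**Figure D3:**
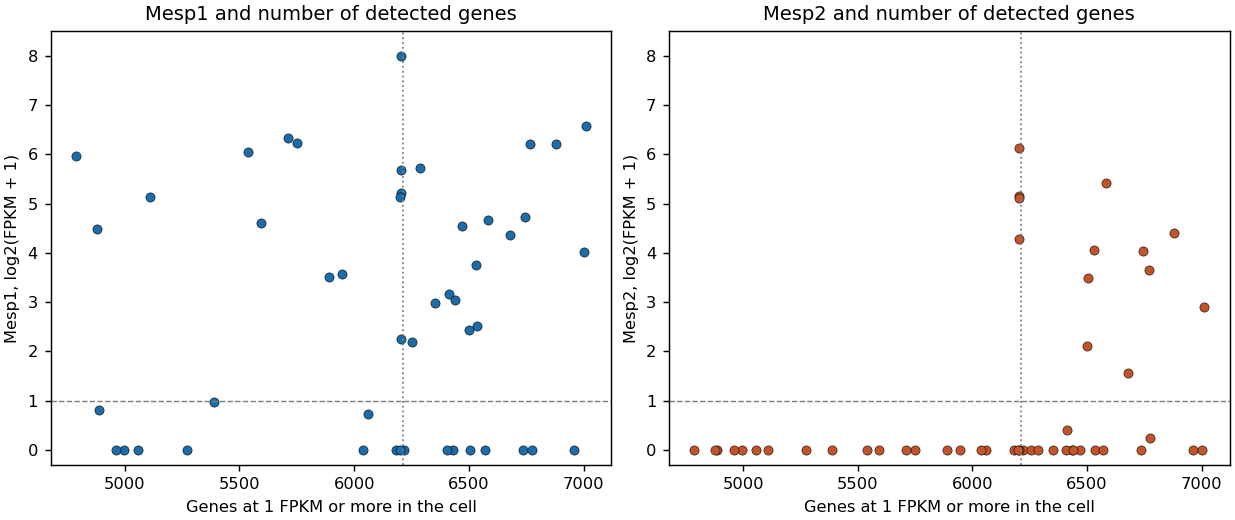
Mesp1 (left) and Mesp2 (right) as log2(FPKM + 1) against the number of detected genes in each of the 48 cells, with 1 FPKM dashed and the median gene number dotted. Cells with Mesp1 span the whole range, while all 13 cells with Mesp2 lie at 6204 genes or more.

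The next question was which genes were high or low in the same cells as each paralogue. Spearman's rho was computed for 8336 genes detected in at least 12 cells, Mesp1 and Mesp2 included, and a gene is called related at 0.3 or more or at -0.3 or less. Of the 8335 other genes, 204 (2.45%) were at 0.3 or more with Mesp1 and 195 (2.34%) at -0.3 or less. For Mesp2 the numbers were 395 (4.74%) and 38 (0.456%), and after regression on the number of detected genes they were 195 (2.34%) and 121 (1.45%). The median rho was 0.0031 with Mesp1 and 0.058 with Mesp2. These percentages are the background for every list below. Each rho rests on 48 values with many at 0, and a single value near 0.3 is no finding.

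Among 13 mesodermal factors of the same protein class, Mesp1 was detected in the most cells, and 12 of the 13 were detected in at least 1. Hand1, a factor of lateral plate and early heart mesoderm, was detected in 26 cells, Twist1, a mesenchymal regulator, in 19, Hand2, which acts in the heart and limb, in 14 and Mesp2 in 13. Tal1, a blood and endothelial factor, was found in 8 cells, Tcf15, of paraxial mesoderm, in 7, Msgn1, of presomitic mesoderm, in 5, Tcf21 in 4, Twist2 in 3 and Lyl1 and Hes7 in 1 each. Scx, of tendon precursors, was listed at 0 in all 48. Hand1 was the member closest to Mesp1 (rho = 0.43). It was detected in 23 of 30 cells with Mesp1 (76.7%, interval 57.7% to 90.1%) and in 3 of 18 without (16.7%, interval 3.58% to 41.4%). The median of Hand1 was 5.78 FPKM and its highest level, in C56, 523 FPKM. The cells without Mesp1 that nonetheless held Hand1 were C67 at 298 FPKM, C59 at 192 FPKM and C31 at 41.9 FPKM. The rho of Hand1 with Mesp1 was 0.68 up to capture number 48 and 0.22 above it, and 0.81 in the 24 cells above the median gene number against 0.11 in the other 24. Hand2 had rho = 0.31 and Twist1 0.2995 with Mesp1.

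The E proteins, which pair with Mesp1 and Mesp2 on DNA, were broadly present. Tcf3 and Tcf4 were detected in 44 cells each and Tcf12 in 37. The Id genes encode inhibitors that occupy E proteins without binding DNA. Id1 and Id3 were detected in 47 cells each with medians of 209 and 748 FPKM, Id2 in 40 with a median of 156 FPKM, and Id4 in 4. None of the 6 members detected in 12 or more cells was related to Mesp1 (rho between -0.061 and 0.26), and 1 of 6 was related to Mesp2, Tcf4 at rho = 0.36. All 13 cells with Mesp2 held each of the 3 E proteins. Of the 35 cells without Mesp2, 31 held Tcf3, 31 held Tcf4 and 24 held Tcf12. Tcf3 and Id1 were also detected in 16 and 17 of the 18 cells without Mesp1.

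Of 14 listed inputs detected in 12 or more cells, 5 were at 0.3 or more with Mesp1: Lef1, a nuclear effector of WNT signals (rho = 0.43), the forkhead genes Foxc1 (0.42) and Foxc2 (0.32), the T-box gene Tbx6 (0.37) and Foxh1, the DNA-binding partner of SMADs under Nodal (0.31). None was at -0.3 or less. Tbx6 was detected in 13 cells, 12 of them with Mesp1 (12 of 30, 40%, against 1 of 18, 5.56%) and 7 with Mesp2. Foxc1 was detected in 16 of 30 cells with Mesp1 (53.3%, interval 34.3% to 71.7%) and in 2 of 18 without (11.1%, interval 1.38% to 34.7%). Lef1 was detected in 28 of 30 and 12 of 18 cells.

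Eomes, T and Mixl1, factors of the primitive streak, were each detected about as often without Mesp1 as with it. Eomes, a T-box activator of Mesp1 in the embryo, was detected in 22 of 30 cells with Mesp1 and in 13 of 18 without (rho = 0.0091). Brachyury, T, was detected in 16 and 10 of them (rho = -0.19), and Mixl1 in 19 and 11 (rho = -0.16). Wnt3 (rho = -0.15), Bmp4 (0.068) and Tdgf1 (0.014), signals and a co-receptor of the streak, were likewise under 0.3 in size.

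With Mesp2, 4 of the 14 inputs were at 0.3 or more: Lef1 (0.42), Tbx6 (0.41), Foxc2 (0.37) and Foxc1 (0.31). Lef1 was detected in 13 of 13 cells with Mesp2 and in 27 of 35 without. Tbx6 was detected in 7 of 13 (53.8%, interval 25.1% to 80.8%) and in 6 of 35 (17.1%, interval 6.56% to 33.6%). After regression on the number of detected genes, Lef1 was at 0.38 with Mesp2 and Tbx6 at 0.26.

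Genes reported downstream of Mesp1 in heart and vessel development and in the change from epithelium to mesenchyme were the list with the most related members by count. Of 17 detected in 12 or more cells, 7 (Rasgrp3, Hand1, Foxc1, Pdgfra, Isl1, Foxc2 and Hand2) were at 0.3 or more with Mesp1 and none at -0.3 or less. The median rho of the 17 was 0.29 against 0.0031 over all genes. By share, the mesodermal basic helix-loop-helix list was higher, with 3 of 4 (Mesp2, Hand1 and Hand2) and a median of 0.34. Foxc1 and Foxc2 are also among the listed inputs, and Hand1 and Hand2 among the basic helix-loop-helix factors. Of the 17, Rasgrp3, a RAS activator, was nearest (rho = 0.49, place 7 of all 8335 genes). It lies at positions 75435896 to 75529054 of chromosome 17 on the plus strand and was detected in 15 of 30 cells with Mesp1 (50%, interval 31.3% to 68.7%) and in 2 of 18 without (11.1%, interval 1.38% to 34.7%). Its highest value was 65.3 FPKM, in C42, and its rho was 0.12 within the 30 cells with Mesp1. Pdgfra, a receptor of mesoderm, was detected in 24 of 30 and 7 of 18 cells (rho = 0.39), and Isl1, a regulator of later heart progenitors, in 18 of 30 and 7 of 18 (rho = 0.36).

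The other members of that list were under 0.3. Snai1, a repressor of E-cadherin, was at 0.29, Gata4 at 0.196 and Kdr, the receptor of blood and vessel precursors, at 0.19. Etv2, at the head of the blood and endothelial programme, was at 0.15 and detected in 19 of 30 and 7 of 18 cells. Gata6 was at 0.12 and Mef2c at 0.13. Dkk1, a WNT antagonist, was at -0.0599, and Prickle1, of the planar polarity pathway, at -0.15. Of the 5 members outside this filter, Tbx20 was detected in 9 cells, Smarcd3, a chromatin remodelling subunit of heart precursors, in 8, all with Mesp1, Tbx5 in 6, Myocd in 4 and Nkx2-5 in none.

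Mesp2 was related to 6 of the same 17 genes: Gata6 (0.39), Snai1 (0.38), Foxc2 (0.37), Rasgrp3 (0.35), Zfpm1, a GATA cofactor (0.33), and Foxc1 (0.31). Gata6 and Snai1 were at 0.297 and 0.29 after regression on the number of detected genes. Rasgrp3, Foxc1 and Foxc2 were at 0.3 or more with both paralogues. Hand1, at 0.43 with Mesp1, was at 0.22 with Mesp2, and Gata6 was at 0.12 and 0.39. Both relations share all cells, and whether they differ was not tested.

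Among the streak and endoderm genes reported to fall when Mesp1 is induced, Foxa2, a forkhead factor of endoderm and node, had rho = -0.42 with Mesp1, and T and Fgf8 had -0.19 and -0.0050. Foxa2 was detected in 4 of 30 cells with Mesp1 (13.3%, interval 3.76% to 30.7%) and in 8 of 18 without (44.4%, interval 21.5% to 69.2%). Its highest value, 104 FPKM, was in C79, which listed Mesp1 at 0. In the 4 cells that held both, Foxa2 was 38.97 FPKM in C48, 27.5 in C62, 22.8 in C65 and 8.09 FPKM in C12. Fgf8 was detected in 9 of 30 cells with Mesp1 and in 8 of 18 without. Nodal was detected in 8 cells (3 with Mesp1 and 5 without), Gsc in 10 (4 and 6) and Sox17 in 1 (without Mesp1), too few for the filter.

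Segmentation and NOTCH genes, the setting in which Mesp2 is best known, were next. Of 14 detected in 12 or more cells, 5 were at 0.3 or more with Mesp2 (Epha4, Dll1, Tbx6, Notch1 and Dll3) and 1, Cer1, at -0.3 or less. Their median rho with Mesp2 was 0.24 against 0.058 over all genes. This list median was not stable, at 0.029 up to capture number 48 and 0.34 above it. It was 0.036 in cells above the median gene number, 0.35 in the other cells and 0.15 after regression on the number of detected genes. After regression on the number of detected genes 3 were at 0.3 or more, Epha4 (0.48), Dll1 (0.44) and Notch1 (0.33), while Dll3 was at 0.28 and Tbx6 at 0.26. Epha4, an Eph receptor that is a target of Mesp2 at the segment border, had the highest value (rho = 0.52, place 6 of 8335). It lies on chromosome 1 at positions 77367185 to 77515088, minus strand, and was detected in 13 of 13 cells with Mesp2 (interval 75.3% to 100%) and in 20 of 35 without (57.1%, interval 39.4% to 73.7%). Its highest level, 40.8 FPKM, was in C46, the cell with Mesp2 and no Mesp1. Epha4 had rho = 0.52 up to capture number 48 and 0.45 above it. With Mesp1 it was at 0.21.

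Dll1, a NOTCH ligand, was detected in 8 of 13 cells with Mesp2 (61.5%, interval 31.6% to 86.1%) and in 4 of 35 without (11.4%, interval 3.20% to 26.7%), with rho = 0.43. The receptor Notch1 was detected in 11 of 13 cells and 9 of 35, with rho = 0.38. Dll3, a ligand-like NOTCH modulator of the presomitic mesoderm, was at 0.33 with Mesp2 and at 0.40 with Mesp1. The NOTCH target Hes1 was detected in all 48 cells and was at -0.25 with Mesp2. Cer1, whose secreted protein blocks Nodal and BMP ligands, was detected in 2 of 13 cells with Mesp2 and in 15 of 35 without (rho = -0.34), although its value was -0.092 above capture number 48.

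The other members of the segmentation list ranged widely in detection. Notch2 was detected in 44 cells, Rbpj in 39, Hey1 in 31, Efnb2 in 25, Nrarp in 17 and Maml1 in 14. Lfng, Ripply1 and Heyl were under 1 FPKM in every cell, Hes7 was detected in 1 cell, Tbx18 in 2, Ripply2 and Uncx in 3 each, Msgn1 and Hey2 in 5 each, and Meox1 and Pcdh8 in 6 each. With Mesp1, the rho of Dll3 was 0.40, that of Tbx6 0.37 and that of Dll1 0.34.

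**Figure D4:**
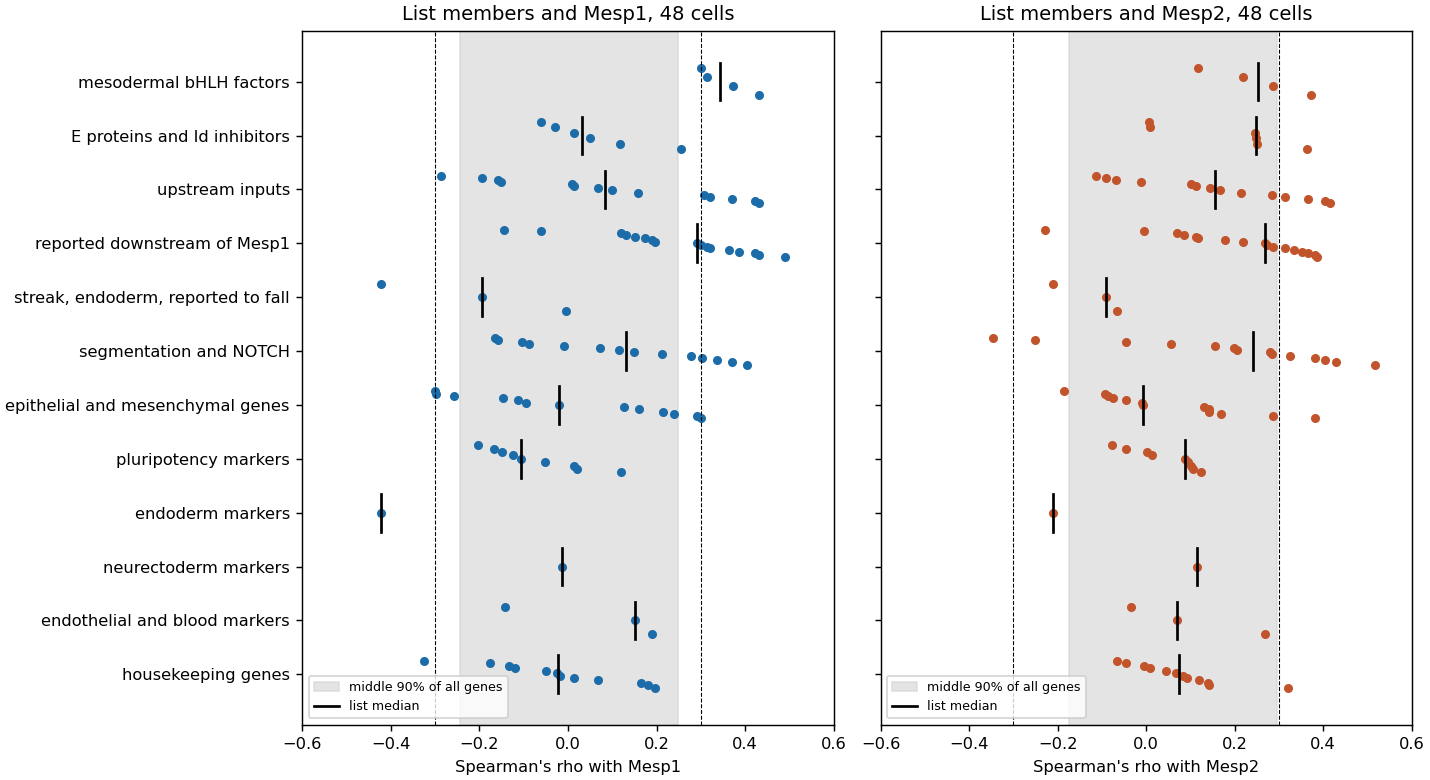
Spearman's rho with Mesp1 (left) and Mesp2 (right) of every list member detected in at least 12 cells, 1 point per gene, with list medians as bars, -0.3 and 0.3 dashed and the middle 90% of all genes shaded. Over all cells, the list of genes reported downstream of Mesp1 has its median at 0.29 with Mesp1, and the segmentation list at 0.24 with Mesp2.

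Few markers of other cell states were related to the pair. Of 9 pluripotency markers in 12 or more cells, 0 were related to either gene, with rho between -0.20 and 0.12 for Mesp1. The summed level of the list ran from 40.6 to 4713 FPKM in cells with Mesp1 and from 81.9 to 3920 FPKM in cells without it. Of 12 endothelial and blood markers, 3 passed the filter and 0 were related to Mesp1. Cdh5, Hbb-bh1 and Hba-x were listed at 0 throughout. Otx2, the single neurectoderm marker that passed, was at -0.013. The skeletal myogenic list had 4 of 7 members detected in any cell and 0 in 12 cells, with Myf5 and Myog listed at 0. Foxa2, described above, was the single endoderm marker of 5 to pass. Of 13 epithelial and mesenchymal genes, Krt18, a keratin, was at -0.30 with Mesp1, and Cldn6, a claudin, at -0.299. The other epithelial genes of the list were nearer to no relation, with Cdh1 at -0.26, Krt8 at -0.15 and Epcam at -0.094. Krt18 was detected in 14 of 30 cells with Mesp1 and in 14 of 18 without. Among genes of mesenchyme, Vim was at 0.24, Cdh11 at 0.22, Fn1 at 0.16 and Zeb1 at 0.13, while Cdh2 was at -0.021 and Zeb2 at -0.11. Of 12 housekeeping genes, Hprt was at -0.32 with Mesp1 and Actb at 0.32 with Mesp2.

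**Figure D5:**
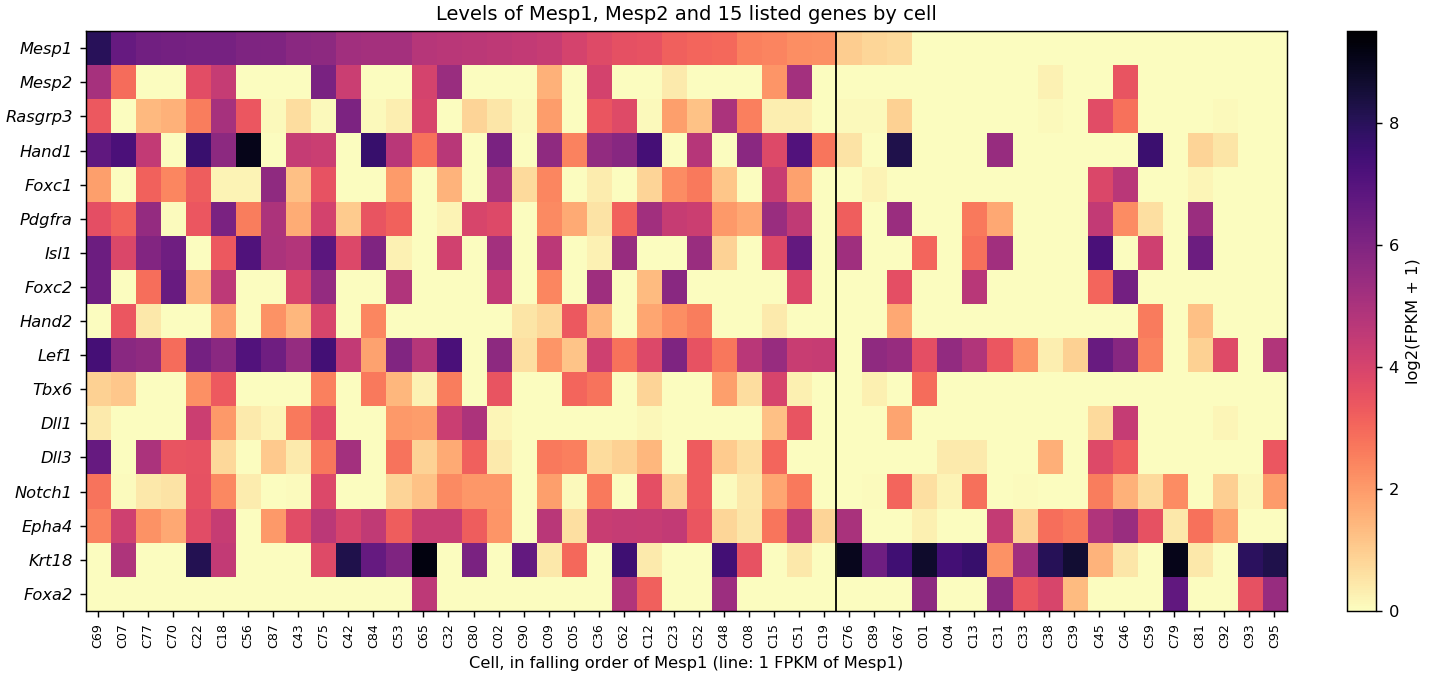
Levels of Mesp1, Mesp2 and 15 listed genes as log2(FPKM + 1), 1 column per cell in falling order of Mesp1, with a line at 1 FPKM of Mesp1. Hand1 fills 23 of the 30 columns left of the line and 3 of the 18 to its right, and Foxa2 fills 4 and 8.

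The genes most like Mesp1 over the 48 cells were Zbed6 (rho = 0.58), Ube2l6 (0.58), Fancb (0.56), St5 (0.54), Bmper (0.52), Limch1 (0.49), Rasgrp3 (0.49), Rwdd3 (0.48), B3gnt5 (0.47) and Neo1 (0.47). These genes, like those at the other ends of the rankings below, were chosen by rho among 8335 genes. Their detection counts restate that choice and are no separate support. Ube2l6, an enzyme of ISG15 conjugation, was detected in 16 of 30 cells with Mesp1 and in 0 of 18 without. Fancb, a Fanconi anaemia protein of DNA repair, was detected in 14 and 2 of them, and Bmper, a secreted modulator of BMP signals, in 16 and 3. Limch1 was detected in 14 and 1, and Neo1, a receptor of netrins and repulsive guidance molecules, in 19 and 3. Zbed6, in 20 and 1, lies within another gene, and how shared reads were split is not known. The levels of several were low in many cells: the medians of Zbed6, Ube2l6 and Fancb were 0.822, 0.239 and 0.132 FPKM.

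The 5 at the other end were Urb1 (-0.46), Bex1 (-0.46), Tpp2 (-0.46), Tsg101 (-0.46) and Katnal2 (-0.45). Tsg101, of endosomal sorting, and Tpp2, a peptidase, were detected in all 48 cells, with medians of 73.8 and 22.4 FPKM. The part of detection in these relations was not tested. Within the 30 cells with Mesp1, the genes most like it ranged widely. Fancb had rho = 0.63, St5 0.41, Rwdd3 0.39, Limch1 0.37 and B3gnt5 0.36. Ube2l6 was at 0.26, Zbed6 at 0.25, Bmper at 0.21, Rasgrp3 at 0.12 and Neo1 at 0.086. Of the 5 at the other end, Urb1 was at -0.60, Tsg101 at -0.28, Bex1 at -0.22, Katnal2 at -0.043 and Tpp2 at 0.0051. In the same 30 cells Hand1 was at 0.15 and Tbx6 at -0.031.

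The genes most like Mesp2 were Sirt1 (0.61), Schip1 (0.61), Fam120b (0.55), Mycn (0.54), Det1 (0.52), Epha4 (0.52), Ifitm1 (0.49), Pdss2 (0.49), Phf23 (0.48) and Gpatch4 (0.48). Sirt1, a deacetylase, was detected in 11 of 13 cells with Mesp2 and in 7 of 35 without. Mycn, a growth-promoting MYC family factor, was detected in 13 of 13 and 28 of 35, and Ifitm1, a surface protein of early mesoderm, in 13 of 13 and 34 of 35. Sirt1 and Mycn themselves had rho = 0.54 with the number of detected genes, and after regression on it they were at 0.48 and 0.38 with Mesp2. Schip1 was then at 0.52 and Ifitm1 at 0.47. The 5 at the other end were Ccl27a (-0.40), Fbxw7 (-0.39), Pcbd2 (-0.39), Rdh14 (-0.37) and Bckdhb (-0.37). Rdh14 was detected in 0 of 13 cells with Mesp2 and in 12 of 35 without. Of the 203 genes at 0.3 or more with Mesp1 other than Mesp2, 37 (18.2%) were so with Mesp2, against 4.74% of all genes. They are 9.39% of the 394 genes of Mesp2, against 2.45% of all genes at 0.3 or more with Mesp1. Because Mesp1 and Mesp2 themselves had rho = 0.37 over the same cells, these sets are not independent. Their overlap was not tested.

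The last question was whether neighbouring genes were high in the same cells. Of 10 neighbours in the table that start within 250 kb of Mesp1, 5 were detected in 12 or more cells, and 0 of these were related to either gene (rho between -0.026 and 0.28 with Mesp1 and between -0.028 and 0.24 with Mesp2). They were Zfp710 in 41 cells, Ap3s2 in 39, Arpin and Ticrr in 19 each and Anpep, an aminopeptidase on the far side of Mesp2, in 15. Wdr93, on the far side of Mesp1, was detected in 6 cells, all with Mesp1 and 4 with Mesp2, and had rho = 0.37 and 0.45. Kif7 was detected in 7 cells and Pex11a in 9, and Rhcg and Plin1 in none.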

How the data were processed

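The deposited table holds 23746 rows and 48 cell columns, matched to the cells by their titles. Its unit is not named. Values were treated as deposited FPKM since Cufflinks 2.2.1.0 is listed in the submitters' processing notes, which also list CASAVA 1.8.2, TopHat 0.7 and mm10 without saying what each was used for. The sources used here do not give the annotation, filters or scaling. Rows of 240 repeated symbols were summed. Mesp1 and Mesp2 have 1 row each. Low values multiplied by transcript length fell within 0.1 of a whole multiple of a common step for a median of 31.25% of values per cell, so no read counts were recovered and depth is unknown.

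No test was made, since the cells are 1 sample. Correlations used genes detected at 1 FPKM in at least 12 cells (25%), with 778 short RNA symbols left out (Python 3.11.15, SciPy 1.17.1), and the procedure was tested on simulated data. Intervals are exact Clopper-Pearson at 95%. Alternatives changed the scaling, the pseudocount, the filter, the cells kept and the adjustment for gene number. All 137 genes of the 13 lists were found, some under older symbols. Several genes, among them Foxc1, Foxc2, Hand1, Hand2 and Tbx6, are in more than 1 list, so list counts are not independent. Coordinates are from GENCODE M21 and promoters from RefSeq. No doublet caller was run and no cell removed. Members, lists and motifs were chosen with earlier results of these data known. Named genes were the 10 highest and 5 lowest in rho for each gene, all members of the basic helix-loop-helix and E protein lists, up to 4 members of each other list by size of rho and up to 4 by detection, and the locus neighbours. Further list members were named after their values were seen. One result of the segmentation list is not reported here.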

Additional observations from a re-analysis of the deposited data

How the results depend on the processing

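Detection shares stayed within the intervals given above under the settings run. Of the 17 downstream genes, 5 to 9 were related to Mesp1 (7 in the report) and 4 to 8 to Mesp2 (6 in the report). That count was not made within the 30 cells with Mesp1 detected. There, of the 7 genes related to Mesp1, Isl1 was at 0.38. Foxc2 was at 0.296, Hand1 at 0.15, Foxc1 at 0.13, Rasgrp3 at 0.12, Hand2 at 0.079 and Pdgfra at 0.064. The rho of Mesp1 with Mesp2 was under 0.3 within the 30 cells with Mesp1 detected (0.17) and without the 2 cells farthest in Mesp1 (0.29). With fewer cells correlations spread more widely by construction. At capture numbers up to 48 and above 48, genes at 0.3 or more with Mesp1 numbered 657 and 891 and at -0.3 or less 609 and 624, and with Mesp2 794 and 1078, and 434 and 349. In cells above and up to the median gene number, settings chosen after seeing the data, these were 747 and 797, 691 and 582, 813 and 987, and 469 and 311. Regression on the number of detected genes gave 195 and 121 genes for Mesp2, in place of 395 and 38. Genes low with Mesp2 numbered 58 of 8819 after scaling to a common total without short RNA rows, 101 without 7 cells under 5189 detected genes, and 59 of 12357 (0.477%) with genes above 0 in at least 5 cells, which gave 318 (2.57%) high with Mesp1, shares close to those in the report.

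The 5 upstream members related to Mesp1 were 3 by Pearson's r of log2(FPKM + 0.1), 3 without C69, the cell highest in Mesp1, and 3 without C75, the cell highest in Mesp2, both also chosen after seeing the data. The 4 segmentation members related to Mesp1 were 2 by Pearson's r of log2(FPKM + 1) and 2 up to capture number 48. The 5 related to Mesp2 were 3 after regression on gene number, 8 above capture number 48 and 8 in cells up to the median gene number. Of 59 single relations under 738 alternatives, 625 stayed on their side of 0.3, 109 came nearer to 0 and 4 changed sign, all within the 30 cells with Mesp1 detected: Tpp2 (0.0051), Tbx6 (-0.031), Foxh1 (-0.12) and Krt18 (0.039). The cause was not tested. No paired analysis was possible because there is 1 group of cells. Depth is unknown, and a gene listed at 0 may have been missed.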
